A study of Homo sapiens with 8 samples.

Results

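The sites described here are stretches of the human genome that were called as bound by the transcription factor RFX7 both with and without Nutlin-3a, and that stand apart from other called stretches. Members were chosen from 2 deposited lists of called peaks, 1 for each treatment. An entry was kept when it overlapped an entry of the other list by at least 1 bp and had at most 1 other entry of its own list with a summit within 100 kb. This gave 158 of the 505 DMSO entries, or 31.3% (27.4 to 35.5%, 95% Wilson interval), and 156 of the 622 Nutlin-3a entries, or 25.1% (21.8 to 28.6%). Joined by overlap, these 314 of 1127 entries formed 163 sites. Both lists held a member at 148 of them. In 8 sites the DMSO entry alone was a member and in 7 the Nutlin-3a entry alone, because the entry of the other list had closer neighbours. The overlap between the lists was part of the choice, so it is no result. Isolated or not, an overlap was found for 74.3% of the DMSO list and 56.9% of the Nutlin-3a list.

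The study used HCT116, a human colorectal carcinoma cell line with wild-type p53, and all 4 groups come from this 1 line. Chromatin immunoprecipitation with sequencing (ChIP-seq) recovers the DNA bound to a protein with an antibody, here 3 ug of antibody to RFX7 per sample, and sets it against input DNA that saw no antibody. Cells had 10 uM Nutlin-3a or the solvent DMSO for 24 h, and 2 samples per treatment were immunoprecipitated, beside 2 samples of input. Each list covers its treatment as a whole and gives no value per replicate, so no spread between replicates can be stated and no test was run. Nutlin-3a blocks the binding of the ubiquitin ligase MDM2 to p53 and so stabilises p53.

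RFX proteins are a family of factors that share a winged-helix DNA-binding domain and bind variants of the X-box, a pair of inverted motif arms. RFX7 is widely expressed and has been linked to genes that restrain growth, some of which respond to p53. RFX5, by contrast, is known as a subunit of the complex that controls major histocompatibility class II genes.

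Some entries lay near the limit of the rule. Among members, the second nearest entry of the same list was at least 109098 bp away (DMSO) or 100187 bp away (Nutlin-3a). At that limit, the DMSO member was enriched 6.84-fold at a −log10 q of 23.7, and the Nutlin-3a member 1.49-fold at 13.0. Both were nearest to WSB1, but 799442 and 699210 bp from its start. The shared entries just outside had their second nearest neighbour at 51776 bp for DMSO (fold enrichment 2.02, −log10 q 81.6, far from any coding gene) and at 58996 bp for Nutlin-3a. The latter was the Nutlin-3a entry at DDIT4, enriched 18.3-fold with a −log10 q of 154. DDIT4 is therefore a site through its DMSO entry. No other entry lay within 100 kb for 127 DMSO and 118 Nutlin-3a members, and 1 did for 31 and 38. The shortest overlap between the entries of a site was 49 bp and the median 207 bp.

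Where RFX7 was called in gene promoters, the DNA itself can be shown. The stretches below are the promoter sequences under 8 sites, the highest by mean rank among the sites named by rank or by gene list whose summits fall in the promoter window, which runs from 250 bases before to 50 after a gene start. LOC124903762, named further on for its motif alone, was outside that choice. They run 5′ to 3′ on the strand of the gene, around the summits of the lists, and end before the gene start. They come from RefSeq on GRCh38.p14. Capitals mark the 6 letters GTTGCT or their reverse complement AGCAAC, or the 7-letter X-box arm GTTGCTA where the next letter also matched.
VCP, chr9:35072632-35072828, minus strand: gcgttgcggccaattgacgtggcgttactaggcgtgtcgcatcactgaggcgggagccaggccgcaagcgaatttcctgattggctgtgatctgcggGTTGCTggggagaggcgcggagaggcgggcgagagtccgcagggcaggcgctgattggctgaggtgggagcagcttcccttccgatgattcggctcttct
CKS2, chr9:89310989-89311115, plus strand: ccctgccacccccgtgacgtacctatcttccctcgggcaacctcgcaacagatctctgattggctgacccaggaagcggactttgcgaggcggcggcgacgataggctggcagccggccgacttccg
DDIT4, chr10:72273695-72273835, plus strand: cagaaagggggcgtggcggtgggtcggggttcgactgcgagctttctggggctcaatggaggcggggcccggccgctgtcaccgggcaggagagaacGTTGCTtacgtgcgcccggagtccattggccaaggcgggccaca
RFX5, chr1:151347253-151347388, minus strand: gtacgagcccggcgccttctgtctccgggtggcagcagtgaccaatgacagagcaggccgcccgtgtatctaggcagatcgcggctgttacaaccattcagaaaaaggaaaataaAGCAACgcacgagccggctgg
SOX12, chr20:325353-325478, plus strand: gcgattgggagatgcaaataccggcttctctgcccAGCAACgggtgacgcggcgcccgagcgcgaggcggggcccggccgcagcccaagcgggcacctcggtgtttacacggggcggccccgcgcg
TSPYL2, chrX:53082117-53082353, plus strand: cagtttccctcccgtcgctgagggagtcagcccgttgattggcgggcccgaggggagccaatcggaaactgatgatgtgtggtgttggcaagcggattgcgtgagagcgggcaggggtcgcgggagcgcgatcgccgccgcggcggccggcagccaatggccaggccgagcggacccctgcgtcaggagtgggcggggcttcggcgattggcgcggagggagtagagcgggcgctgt
MXD4, chr4:2262135-2262359, minus strand: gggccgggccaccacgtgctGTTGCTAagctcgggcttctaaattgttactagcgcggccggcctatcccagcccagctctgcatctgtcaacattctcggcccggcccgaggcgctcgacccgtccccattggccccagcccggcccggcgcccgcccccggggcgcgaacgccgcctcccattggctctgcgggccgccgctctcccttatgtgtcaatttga
TOP2B, chr3:25664908-25665092, minus strand: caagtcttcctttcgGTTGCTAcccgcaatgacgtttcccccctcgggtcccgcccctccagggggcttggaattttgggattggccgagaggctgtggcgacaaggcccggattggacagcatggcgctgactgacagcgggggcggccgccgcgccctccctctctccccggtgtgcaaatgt

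In 4 of these 8 stretches, at VCP, DDIT4, RFX5 and SOX12, GTTGCT was present without the seventh letter. At MXD4 and TOP2B the 7-letter arm GTTGCTA was present. At CKS2 and TSPYL2 neither string was found, which says only that these letters are not in the window. At VCP, SOX12, DDIT4 and RFX5 the marked letters lay within 58 bp of both summits, where the called signal peaks, but at MXD4 and TOP2B they did not. Both VCP entries, the Nutlin-3a entries at RFX5 and MXD4 and the DMSO entry at TOP2B had a pileup that could not be resolved, as explained below. The summits of these entries are less certain. At VCP they were 40 bp from the DMSO summit and 36 bp from the Nutlin-3a summit. At SOX12 the distances were 22 and 27 bp, at DDIT4 40 and 20 bp, and at RFX5 58 and 3 bp. At MXD4 they were 19 bp from the DMSO summit but 141 bp from the Nutlin-3a summit, and at TOP2B 143 and 42 bp.

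Over all sites, 38 had a summit of at least 1 list in the promoter window of a protein-coding gene. A site could have more than 1 such window, and all of them were searched. The X-box arms GTTGCCA or GTTGCTA, searched on both strands, were present at 11 of these 38 sites, or 28.9% (17.0 to 44.8%). Of all 35116 promoter windows of the table, which have the same length, 6.75% held either, and of the 22198 windows of coding genes 6.67%. These windows were counted singly, so the shares are not strictly like for like. All 11 matches were to GTTGCTA, which 2.85% of all windows held. GTTGCCA was found at 0 of 38 sites (0 to 9.18%) and in 4.08% of all windows. The full 14-letter X-box was found at 0 of 38 sites and in 0.490% of all windows. The 6-letter core GTTGCT overlaps GTTGCTA and was chosen after these sequences had been seen. It was present at 23 of 38 sites, or 60.5% (44.7 to 74.4%), and in 12.8% of all windows.

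The genes with GTTGCTA in the window were IP6K2, YPEL2, MXD4, XRCC1, TOP2B, RAB40B, CDK4, MARK3, GATAD2A, the predicted gene LOC124903762 and DSE, whose start is close to that of TSPYL1. They are listed in full because they are all of the matches. The window of LOC124903762 held the motif at 2 positions. In 7 of the 11 sites the arm was within 50 bp of the nearer summit, with a median distance of 22 bp. To the summit of each list by itself the median distance was longer, at 101 bp (DMSO) and 141 bp (Nutlin-3a). At CDK4, the cyclin-dependent kinase of the G1 phase, the arm was 3 bp from the DMSO summit and 41 bp from the Nutlin-3a summit. Both CDK4 entries had a pileup that could not be resolved, as explained below, so their summits are less certain. Of the 11 sites, XRCC1 and MARK3 alone had a resolved pileup in both lists, so most of these distances share that limit. GTTGCT was within 50 bp of the nearer summit in 16 of 23 sites. Whether these distances are shorter than for letters placed anywhere in the window was not tested. In the Nutlin-3a list alone, 35 isolated entries had the summit in a promoter window. Of these, 11 had GTTGCCA or GTTGCTA (31.4%, 18.6 to 48.0%) and 11 had GTTGCT. Among those 35 entries GTTGCCA was found at 5 and GTTGCTA at 6. Whether the motif content of shared and unshared sites differs was not tested.

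Many of the sites lay near gene starts. For coding genes without a strand in the reference, the nearer gene end stood in for the start here and in the distances below. The summit lay within 1 kb of the start of a protein-coding gene for 66 of 158 DMSO members, or 41.8% (34.4 to 49.6%), and for 65 of 156 Nutlin-3a members, or 41.7% (34.2 to 49.5%). Over all entries the shares were 20.4% (17.1 to 24.1%) and 22.5% (19.4 to 26.0%). Isolated entries without a counterpart were near a start in 18 of 87 DMSO cases (20.7%, 13.5 to 30.4%) and in 61 of 167 Nutlin-3a cases (36.5%, 29.6 to 44.1%). Shared entries that were not isolated were near a start in 8 of 217 cases (3.69%) and 6 of 198 cases (3.03%). These intervals cover counting error over entries only.

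**Figure D1:**
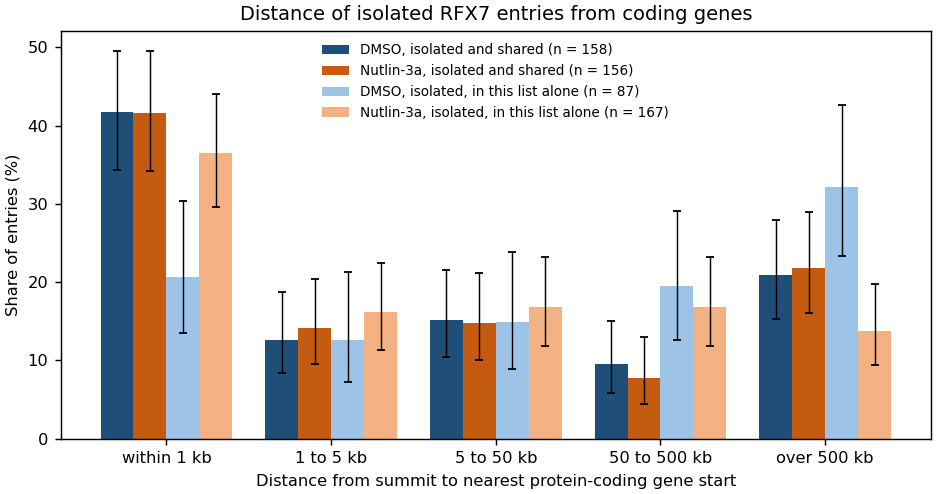
Share of entries (y axis, %) in 5 classes of distance from the summit to the nearest protein-coding gene start (x axis), for the isolated shared entries and the isolated entries found in 1 list alone, with 95% Wilson intervals as error bars. In both lists about 42% of the isolated shared entries lie within 1 kb, and 20.9% (DMSO) and 21.8% (Nutlin-3a) lie over 500 kb away.

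Around gene starts, summits fell mostly just before the start. Of the 57 DMSO summits within 1 kb of a start of known strand, 44 were before it and 13 at or after it, with a median position of -138 bp. Of the 56 Nutlin-3a summits, 43 were before it and 13 at or after it, with a median of -122.5 bp. The last 250 bases before the start held 29 of the 57 DMSO and 28 of the 56 Nutlin-3a summits. In the 66 sites within 1 kb, the pileup could be resolved, as explained below, for 43 DMSO and 29 Nutlin-3a entries. The summits of the other entries are less certain. A further 9 and 10 summits were near the end of a gene for which the reference used gave no strand.

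**Figure D2:**
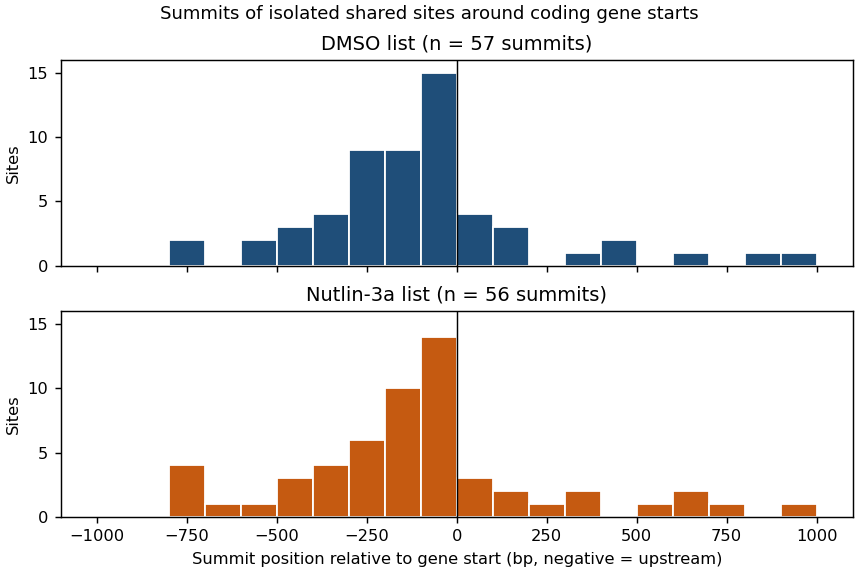
Number of sites (y axis) by the position of the summit relative to the gene start in bp (x axis, 100-bp bins, negative values before the start), for the DMSO list above and the Nutlin-3a list below. In both lists the fullest bin is the last 100 bp before the start, and 13 summits lie at or after the start.

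The sites with the highest ranks in both lists were at genes of several kinds. Within each list, entries were ranked by the fold enrichment the authors deposited, which is the ChIP signal at the summit over the local background, with 1 as the highest rank. A fold or rank of 1 list is not a change against the other, since the lists differ in length and in the reads behind them. The site first by mean rank lay on chromosome 7, 15488 bp (DMSO summit) past the start of HSPB1, which encodes a small heat shock protein, and 86 bp from the start of the long noncoding RNA FPASL. It ranked 2 with DMSO and 4 with Nutlin-3a, with fold enrichments of 19.0 and 27.8. IP6K2, an inositol hexakisphosphate kinase, followed with ranks of 4 and 7 and fold enrichments of 17.8 and 24.1. Its summits were 19 bp (DMSO) and 285 bp (Nutlin-3a) after the gene start. At 14 of the 20 sites highest by mean rank, at least 1 entry had a pileup that could not be resolved, as explained below, so its fold enrichment and rank are less certain. At KDM4A, TOB2, VCP, RAP2A, CNOT1, CIC, CKAP2 and PNRC2 this held in both lists.

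Genes of protein and RNA turnover were among those next in rank. VCP, the ATPase that extracts ubiquitinated proteins from complexes, ranked 10 and 9, with fold enrichments of 13.1 and 23.5 and summits 143 and 67 bp before the start. CNOT1, the scaffold of the main cytoplasmic deadenylase complex, ranked 15 and 17, with fold enrichments of 11.5 and 17.9. PNRC2, a factor of messenger RNA decapping, ranked 54 and 2 by fold enrichment, but 14 and 3 by p-value, with −log10 q of 192 and 376. RCL1, which takes part in processing of ribosomal RNA, ranked 25 and 14.

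Genes of cell division and chromatin also had high-ranking sites. CKS2, a small protein that binds cyclin-dependent kinases, ranked 6 and 15, with fold enrichments of 15.7 and 18.8, and its 2 summits were 6 bp apart, 146 and 140 bp before the start. KDM4A, a histone lysine demethylase, ranked 8 in both lists, with fold enrichments of 15.1 and 23.7 and summits 263 and 315 bp before the start. CKAP2, a spindle-associated protein, ranked 28 and 34. The transcription factors SOX12 and CIC ranked 37 and 25, and 18 and 30. SOX12 had fold enrichments of 7.86 and 13.4 at summits 5 bp apart.

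Further high-ranking sites were at RAP2A (ranks 11 and 10), a small GTPase, at DIP2A (51 and 5), and 415941 bp from the nearest coding start, that of TNS1 (34 and 18). The one of the 20 highest by mean rank that lay over 500 kb from any coding gene was nearest to POTEA. It was 50 bp wide in the DMSO list and 52 bp in the Nutlin-3a list and ranked 12 and 48.

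DDIT4, an inhibitor of the growth kinase complex mTORC1 that many stresses induce, ranked 21 and 16. Its DMSO entry, chr10:72273502-72274112, was enriched 10.2-fold at a −log10 q of 75.2, and the Nutlin-3a values were 18.3 and 154. The summits were 20 bp apart, 169 and 149 bp before the DDIT4 start and 44 and 64 bp from that of the antisense gene DDIT4-AS1, so the site cannot be given to either gene alone.

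Of a list of 18 genes known as RFX7 targets, 11 had a site with a summit within 5 kb of the start: IP6K2, JUNB, MXD4, PDCD4, PIK3IP1, PIK3R3, PNRC1, RFX5, TOB1, TSPYL1 and TSPYL2. Over all 20033 protein-coding genes of the reference the share was 0.539%, or 108 genes. That list was chosen with earlier results of these data known, so its count is no independent support. Within 1 kb the count was 9, without JUNB and PIK3IP1.

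Members of the list that act on the phosphoinositide 3-kinase pathway and on translation had sites in the upper part of both lists by fold enrichment. PIK3R3, a regulatory subunit of that kinase, ranked 17 (DMSO) and 74 (Nutlin-3a), with fold enrichments of 11.2 and 7.25. PIK3IP1, an inhibitor of the kinase, ranked 70 and 80, with fold enrichments of 5.78 and 6.98 at summits 1618 and 1902 bp after its start. PDCD4, an inhibitor of translation initiation, ranked 31 and 71, with fold enrichments of 8.44 and 7.46. In each of these 3 the Nutlin-3a entry had a pileup that could not be resolved, which is explained below. By p-value they ranked 112 and 65, 224 and 106, and 147 and 113.

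The list's transcription and chromatin genes spread over a wider range. RFX5 ranked 29 and 12, with fold enrichments of 8.51 and 20.1 and summits 76 and 21 bp before its start. TSPYL2, a nucleosome assembly protein of the TSPY-like family, ranked 69 and 51, with fold enrichments of 5.81 and 9.28. TOB1, an anti-proliferative protein, ranked 65 and 64, with fold enrichments of 6.09 and 8.02 and summits 406 and 664 bp after its start. JUNB, a subunit of the AP-1 factor, shared its site with HOOK2 at ranks 144 and 169, with fold enrichments of 4.18 and 4.85 and the nearer summit 2056 bp from its start. At RFX5, TOB1 and JUNB the Nutlin-3a entry had a pileup that could not be resolved, as explained below. At TSPYL2 this held for the DMSO entry. By p-value RFX5 ranked 188 (DMSO) and 68 (Nutlin-3a), and TSPYL2 275 and 210. TOB1 ranked 179 and 157 by p-value, and the site of JUNB and HOOK2 249 and 223. MXD4, PNRC1 and TSPYL1 are among the sites whose ranks lay far apart and are described with them.

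The other gene lists had counts of 1 or 2, against 0.539% of all coding genes within 5 kb. Of 11 genes of the RFX family and the RFX5 complex, RFX5 alone had a site within 5 kb. Of 21 ciliary genes, which other RFX factors are known to control, TTC8 alone had one, 79 and 209 bp before its start, with ranks of 82 and 193. TTC8 encodes a subunit of the BBSome, a complex of ciliary transport. Its Nutlin-3a entry had a pileup that could not be resolved, as explained below. By p-value the TTC8 site ranked 266 (DMSO) and 229 (Nutlin-3a). Of 25 direct p53 targets, TP53INP1, a stress protein that p53 induces, alone had a site within 5 kb. It ranked 23 and 20, with fold enrichments of 9.85 and 15.1 and −log10 q of 61.9 and 148.

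Within 50 kb the count for p53 targets was 5 of 25, with BBC3, BTG2, SESN2 and TIGAR added, and over all coding genes it was 267 of 20033, or 1.33%. These are distant pairings, with the nearer summit 8535 bp from BBC3, 12096 bp from SESN2, 21642 bp from BTG2 and 49374 bp from TIGAR. The site near BBC3, the gene of the pro-apoptotic protein PUMA, ranked 87 and 13, with fold enrichments of 5.23 and 19.95. Its DMSO entry had a pileup that could not be resolved, as explained below, so that fold enrichment and rank are less certain. By p-value the site near BBC3 ranked 143 (DMSO) and 69 (Nutlin-3a). The site nearest TIGAR was closer to CCND2, the gene of cyclin D2, at 1923 bp, and the site nearest SESN2 was closer to ATP5IF1, at 11210 bp. In the TOB and BTG family of anti-proliferative proteins, TOB1 and TOB2 had a site within 5 kb and the other 4 genes did not. TOB2 ranked 7 and 11, with fold enrichments of 15.5 and 20.9 at summits 1778 and 1706 bp before its start.

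Whether the sites keep their order between the lists depended on the column that ranks them. In 145 sites the lists held 1 entry each and both were members, and these are called pairs. Over them, the Spearman correlation of the ranks by fold enrichment was 0.72, and by p-value 0.84. With 12 further sites that had 1 entry in each list but 1 of them not isolated, it was 0.74 and 0.84. These are descriptions over sites of 1 pair of lists, which share the cell line, the antibody and the caller. Pairs differed by a median of 6.78 percentiles by fold enrichment and 12.9 by p-value.

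A property of the deposited values bears on these ranks. In the peak caller MACS2 the fold enrichment and the p-value at the summit together fix the pileup, the number of reads stacked there, and the local background. A whole-number pileup, as a read count gives, was found for 112 of 158 DMSO members and 80 of 156 Nutlin-3a members. In the rest the columns of 1 entry do not give a whole number, so its fold enrichment, rank and summit are less certain. Counted from the left end, their median summit position was 24.5% of the width with DMSO and 12.8% with Nutlin-3a, against 48.1% and 45.1% for the others. In the 59 pairs with a whole-number pileup in both lists, this correlation was 0.85 by fold enrichment and 0.72 by p-value. In the other 86 pairs it was 0.56 and 0.89. The median gap was not smaller in the 59 pairs, at 7.01 percentiles by fold enrichment and 15.99 by p-value, against 6.57 and 12.2 in the other 86.

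**Figure D3:**
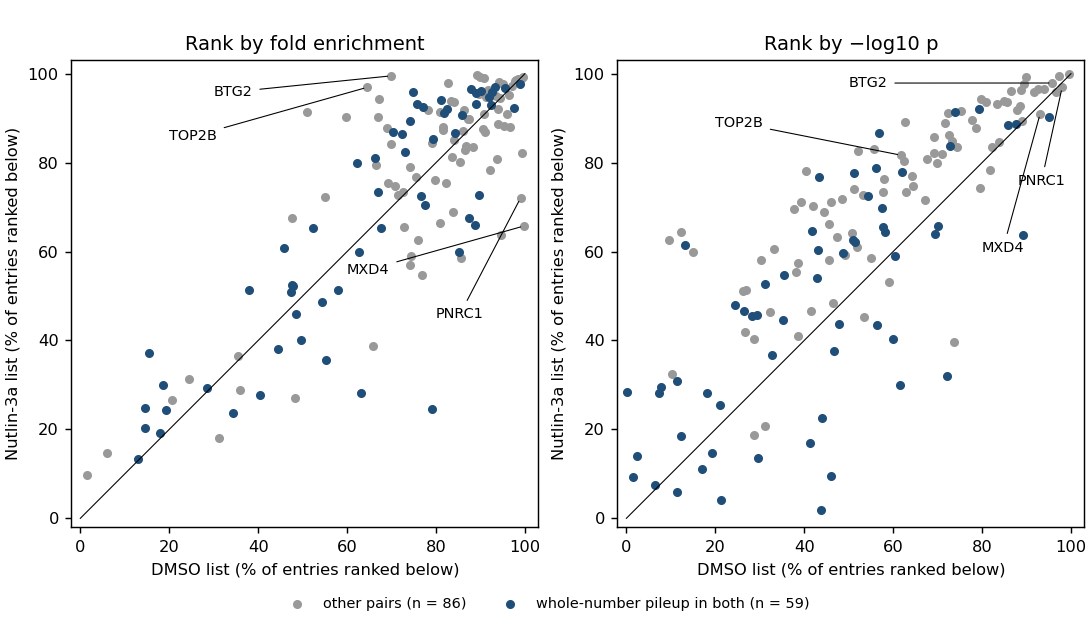
Rank of 145 paired sites in the DMSO list (x axis) and the Nutlin-3a list (y axis), as the percentage of the list's entries ranked below, by fold enrichment on the left and by −log10 p on the right. Blue points have a whole-number pileup in both lists (59) and grey points do not (86). By fold enrichment MXD4 and PNRC1 lie far below the diagonal line of equal rank and BTG2 and TOP2B far above it, and by −log10 p MXD4, PNRC1 and BTG2 lie close to it.

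Among the 10 pairs farthest apart in rank, 5 in each direction, at least 1 entry lacked a whole-number pileup in 8. Over all pairs this was so in 86 of 145, or 59.3%. MXD4, a partner of MAX that opposes MYC, had the highest fold enrichment of all DMSO entries (19.3, rank 1) but ranked 213 in the Nutlin-3a list (4.27), where the pileup was not whole. By p-value it ranked 35 and 56, with nearly equal −log10 q of 136 and 138. The site at DSE and TSPYL1 ranked 27 and 225, and the site at SENP2, a SUMO protease, 73 and 258. By p-value these ranked 181 and 143, and 273 and 180. PNRC1, a nuclear receptor coactivator, was not among the 10 but was of the same kind, with ranks of 5 and 174 by fold enrichment and 10 and 19 by p-value.

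In the other direction, the site 21642 bp from BTG2, a p53-induced anti-proliferative gene, ranked 152 (DMSO) and 3 (Nutlin-3a) by fold enrichment. By p-value it ranked 21 and 13. TOP2B, a DNA topoisomerase that non-dividing cells also use, ranked 179 and 19 by fold enrichment and 193 and 114 by p-value. ZNF490, a zinc finger gene, ranked 166 and 36, and by p-value 281 and 194. CAT, the gene of catalase, ranked 203 and 61, and by p-value 456 and 233. A site 66836 bp from LAPTM5, the gene of a lysosomal membrane protein, and 42 bp from the start of the noncoding gene LINC01778, ranked 247 and 53, and by p-value 429 and 249. All 5 ranked higher with Nutlin-3a by both columns, but they were chosen for their gap in that direction by fold enrichment. The lists differ in length and give no value per replicate, and whether binding changed was not tested.

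Only 2 of the 10 pairs had whole-number pileups in both lists, and both were far from coding genes. The site nearest ROCK1, 3115922 bp away, ranked 106 (DMSO) and 469 (Nutlin-3a), and by p-value 141 and 423. A site nearest ZNF337, 2130412 bp away, ranked 186 and 446, and by p-value 284 and 611. The fold enrichments were 4.81 and 1.94 at the first and 3.52 and 2.06 at the second. Of the sites outside the pairs, 3 lay farther apart than some of these 10, each with an entry that was not isolated. The site nearest SPIN4, 849586 bp away, ranked 76 (DMSO) and 610 (Nutlin-3a). A site nearest LOC102723475, 120552 bp away, ranked 386 and 47, and a site 690199 bp from WSB1 ranked 320 and 572. At SPIN4 and WSB1 the DMSO rank is that of 1 of 2 entries in the site. These 3 were added after their values were seen.

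Entries of the same site were mostly wider in the Nutlin-3a list. Of the 145 pairs, the Nutlin-3a entry was wider in 121, or 83.4% (76.6 to 88.6%), narrower in 20 and equal in 4, with a median difference of 87 bp. It was wider in 57 of 63 pairs within 1 kb of a coding start and in 19 of 31 pairs over 500 kb away. In the 59 pairs with a whole-number pileup in both lists it was wider in 72.9%. Members without such a pileup had median widths of 339.5 bp (DMSO) and 488 bp (Nutlin-3a), against 196.5 and 270 bp for those with it. They made up 42 of the DMSO and 70 of the Nutlin-3a entries of the 145 pairs. The width of an entry also rises with the reads behind a list, which the files do not give. Depth, treatment and the unresolved pileups therefore cannot be told apart here. The median distance between paired summits was 64 bp, and the largest 588 bp. They lay 20 bp apart in the 59 pairs with whole-number pileups and 100 bp apart in the other 86.

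A second kind of site was far from genes. By the nearer of its summits, 66 of the 163 sites lay within 1 kb of a coding start, 23 between 1 and 5 kb, 24 between 5 and 50 kb, 14 between 50 and 500 kb, and 36 (22.1%) over 500 kb. These 36 fell on 17 chromosomes. They were narrower and less enriched than the sites within 1 kb of a coding start. Over 500 kb from a gene, the median fold enrichment was 2.58 with DMSO and 2.21 with Nutlin-3a, against 5.50 and 7.92 in the sites within 1 kb. The median −log10 q was 19.99 and 19.4, against 22.5 and 64.5. The median widths were 109.5 and 150.5 bp, against 319 and 466.5 bp.

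The computed local background differed between these kinds of site. Except where stated, it is given only for entries with a whole-number pileup, where it can be resolved. Its median was 7.38 reads in the 43 DMSO entries and 7.91 in the 29 Nutlin-3a entries within 1 kb of a coding start. Over 500 kb from one it was 67.9 in 30 DMSO entries and 74.2 in 25 Nutlin-3a entries. A background of 50 or more was found in 17 of those 30 and 13 of those 25, and in 0 of 43 and 0 of 29 within 1 kb. Isolation from other entries therefore did not remove all sites with a high background, though such entries were less frequent among members. Counted over all entries, resolved or not, a background of 50 or more was found in 29 of 158 DMSO members. Among the DMSO shared entries that were not isolated it was found in 180 of 217. For Nutlin-3a these counts were 33 of 156 and 165 of 198.

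**Figure D4:**
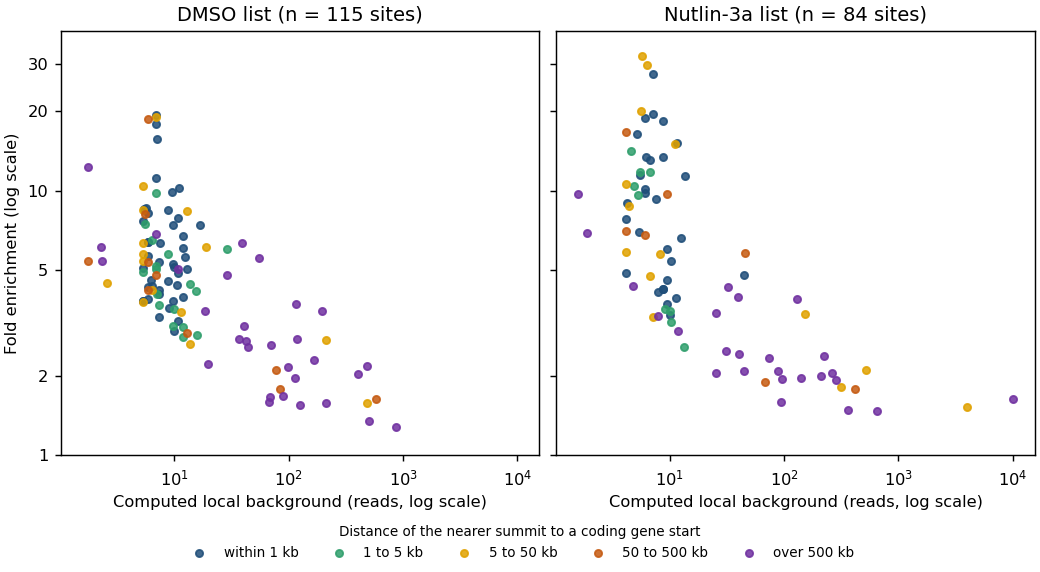
Fold enrichment (y axis, log scale) against the computed local background in reads (x axis, log scale) for the sites whose entry has a whole-number pileup, 115 for DMSO and 84 for Nutlin-3a, coloured by distance to a coding gene start. Sites within 1 kb of a start all lie below a background of 50, and the sites beyond that are mostly those over 500 kb from a start.

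The 5 sites lowest by mean rank were of several distance classes and had low fold enrichments, some beside very low q-values (high −log10 q). The site chr3:93470373-93470802, 503269 bp from the nearest coding start, that of PROS1, ranked 2 (DMSO) and 1 (Nutlin-3a) by p-value, with −log10 q of 422 and 729. By fold enrichment it ranked 475 and 531, with values of 1.38 and 1.64. A site on chromosome 9, 5705 bp (DMSO summit) from the start of LOC112268044, had fold enrichments of 1.27 and 1.52, with −log10 q of 182 and 199. The remaining 3, which lay 96757 bp from LOC102723475, 699209 bp from WSB1 and 903613 bp from ZNF337, had fold enrichments of 1.28 to 1.34 (DMSO) and 1.48 to 1.57 (Nutlin-3a). Whether such sites are bound by RFX7 was not tested, since the lists hold no control with another antibody or without RFX7.

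Against the rest of each list, the isolated shared entries stood high by fold enrichment. By p-value they stood near the middle with DMSO and somewhat above it with Nutlin-3a. Since an overlap with the other list is likelier for stronger entries, this is a description. Their median fold enrichment was 4.91 with DMSO (1.27 to 19.3) and 5.89 with Nutlin-3a (1.29 to 29.95). The median member ranked above 79.5% of the DMSO list and 81.2% of the Nutlin-3a list by fold enrichment, and above 53.4% and 65.1% by p-value. Isolated entries of 1 list alone ranked above 63.8% and 66.9% by fold enrichment but 23.8% and 24.1% by p-value. Shared entries that were not isolated showed the reverse order, with 28.9% and 22.9% by fold enrichment and 65.9% and 66.2% by p-value.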

How the data were processed

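RFX7 ChIP and input DNA of HCT116 cells were measured in 4 groups of 2 samples. The deposited files are 2 narrowPeak lists, and per the submitters' processing notes the tools included Trimmomatic 0.39, cutadapt 2.10, SAMtools 1.10, bedtools 2.29.2 and MACS2 2.2.7.1, on build hg38. The aligner, read depth and whether replicates were pooled are not given in the sources used here. The authors deposited for each entry a fold enrichment (a ratio), −log10 p-value, −log10 q-value, a score and a summit. Ranks, overlaps, distances and pileups were computed here with Python 3.11.15, pandas 2.3.3 and scipy 1.17.1, and tested on simulated data. Pileups were called whole within 0.05, or within the rounding error where that was larger but below 0.25. Gene starts came from RefSeq on GRCh38.p14 for 15842 of 20033 protein-coding genes, and for the other 4191 the nearer gene end was used.

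The members and gene lists were chosen with earlier results of these data known. Sites named are the 20 highest by mean rank percentile, the 5 with the largest rank gap in each direction (among sites with 1 entry in each list, both members), the 5 lowest, those at the limits of the rule and those within 5 kb of a listed gene. Genes outside this rule that had GTTGCTA in the window or were p53 targets within 50 kb were named after their values were seen, as were 3 sites outside the pairs with large rank gaps. 1 site that the rule chose is not reported here.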

Additional observations from a re-analysis of the deposited data

How the results depend on the processing

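No paired analysis was possible because the lists hold no values per replicate, and for the same reason no replicate could be left out. Of 72 alternative values, 45 stayed near the value reported and 27 moved. The cause of each move was not tested. With summits within 100 bp as the rule for a shared entry, 101 DMSO and 99 Nutlin-3a entries formed 105 sites, and the Spearman correlation of ranks by fold enrichment was 0.87. Within 5 kb of a coding start lay 54.4% (DMSO) and 55.8% (Nutlin-3a) of members, and within 500 bp 34.0% of Nutlin-3a members. With no other entry allowed in the window, 50% of the remaining Nutlin-3a members lay within 1 kb. Median rank percentiles were 53.4 (DMSO) by p or q, and in the Nutlin-3a list 65.1 by p and 65.2 by q. The Spearman correlation of ranks was 0.84 by p and 0.84 by q, and 0.62 among entries with a −log10 q of at least 10. Midpoints of a pair lay 31 bp apart. Motif shares were 0% for GTTGCCA and 0% for the X-box. Within 50 kb, 5 p53 targets had a site, and within 1 kb, 1 gene of the TOB and BTG family. The following were added after seeing the data. Pairs with whole-number pileups in both lists had a rank correlation of 0.85, summits 20 bp apart and a wider Nutlin-3a entry in 72.9%. For pairs within 50 kb of a coding gene these were 0.59, 84 bp and 90.3%. GTTGCT was found at 60.5% of the sites with a summit in a promoter window. Pairs widened to all 157 sites with 1 entry in each list gave values near those reported. Depth is unknown, so nothing can be said of sites that both lists missed.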
